A study of Mus musculus with 17 samples.

Results

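The 10 genes described here encode histone variants, the linker histone of the oocyte, and chaperones that place histones onto DNA: H1foo, H3f3a, H3f3b, H2afz, H2afx, Hira, Daxx, Asf1a, Chaf1a and Npm2. They were chosen by name as a family, with earlier results of these data known. Every row of the deposited table (a row is 1 probe set of the array) was taken if the platform annotation gave 1 of these symbols or the current symbol of the same gene ID, which found 18 of 28815 rows. Of these, 10 rows carried a single symbol and belonged to 9 of the 10 genes, with 2 rows for H2afz. The other 8 rows also carried symbols of other genes: 4 rows joined H3f3a with Gm12657, 2 joined H3f3b with Gm6485, and 2 joined H2afx with 19 and 18 other symbols. H3f3b had no row of its own. The annotation used the current names H1f8 for H1foo, H2az1 for H2afz and H2ax for H2afx, and these names are used below.

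Transcript levels were measured in 17 single 2-cell mouse embryos of strain 129SVE, each on an array of its own. Their fathers were wild-type males injected every day over 6 weeks with PJ34, an inhibitor of poly(ADP-ribose) polymerases, or with saline, and the dams were untreated wild-type females mated naturally. The 7 control embryos came from sire A (1 embryo), sire B (3) and sire D (3), and the 10 PJ34 embryos from sire MTM11 (4), sire MTM13 (4) and sire MTM14 (2). The labels describe the control sires both as saline treated and as untreated, and they give neither litter nor sex of the embryos, so that p-values measure the spread between embryos of 3 sires per group. The study asked whether altered packaging of the paternal genome in sperm is followed by altered expression in the embryo, and the genes below are part of the machinery that repackages this genome.

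After fertilization the protamines of the sperm nucleus are removed and the paternal DNA is wrapped around histones stored in the egg. The HIRA complex places histone H3.3 on this DNA outside of replication, while the CAF-1 complex assembles nucleosomes behind replication forks, and ASF1 proteins hand histones H3 and H4 to both. The oocyte supplies its own linker histone and its own nucleoplasmin for these steps, and much of the RNA in a 2-cell embryo is maternal or newly made by the activated embryonic genome. The arrays could not tell stored maternal RNA from new transcripts, and the values are relative to the labelled RNA of each embryo.

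The values were log2 intensities made by the RMA method, which adjusts all arrays to 1 common distribution. Array medians lay between 6.12 and 6.23, and any pair of embryos correlated with r between 0.924 and 0.961 over all rows. Mean levels of maternal markers of the 2-cell embryo (11 rows) ran from 9.57 to 10.10 in control embryos and from 9.65 to 10.04 in PJ34 embryos. At an unadjusted p below 0.05, 2 of these 11 rows were higher in PJ34 embryos, Bmp15 by 0.29 and Btg4 by 0.27. Genome activation markers had 9 rows of 7 genes. Zscan4c, Zscan4d, Zscan4f and Tdpoz4 had only rows with several symbols and Tcstv1 had no row, so these 5 genes were left out. Means of the 9 rows ran from 8.90 to 9.32 in control and from 8.42 to 9.21 in PJ34 embryos, with the lowest in embryo MTM13-4. Of these 9 rows 3 were lower in PJ34 embryos at an unadjusted p below 0.05, where 856 of 21780 rows were lower and 426 higher at that level (5.89% in all). The 3 were 1 row of Dppa4 at -0.60, Usp17lc at -0.48 and 1 row of Dppa2 at -0.21. The other rows of Dppa4 and Dppa2 differed by -0.15 and -0.14 and were not below that level. List means of markers of other cells stayed low in every embryo, with overlapping ranges in both groups. They ran from 5.26 to 5.58 for cumulus cells, from 5.39 to 5.83 for oviduct and blood and from 5.73 to 6.14 for sperm. The oviduct and blood list held 5 of its 8 genes, since Ovgp1, Hba-a1 and Hbb-b1 had only rows with several symbols. The highest single rows lay above the array medians. Prm2, a protamine of sperm, averaged 7.07 in control and 6.96 in PJ34 embryos, and the red cell anion exchanger Slc4a1 6.82 and 6.66. Of the 21 rows, Prm1, another protamine, was higher by 0.17 and Slc4a1 differed by -0.16 at an unadjusted p below 0.05. No marker row passed the adjusted threshold used below, and the markers named were picked after their values had been seen. The part of these shifts in the members' values was not tested.

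The proximal promoters of 8 of the 10 genes were found in a RefSeq table on assembly GRCm38.p6, each with 250 bases before and 50 bases after the transcription start. The promoters of H1f8, at chr6:115944681-115944980 on the plus strand, and of Hira, at chr16:18876500-18876799 on the plus strand, are shown because the levels of these genes varied in opposite directions between embryos, as described below. CG dinucleotides are in capitals.
H1f8: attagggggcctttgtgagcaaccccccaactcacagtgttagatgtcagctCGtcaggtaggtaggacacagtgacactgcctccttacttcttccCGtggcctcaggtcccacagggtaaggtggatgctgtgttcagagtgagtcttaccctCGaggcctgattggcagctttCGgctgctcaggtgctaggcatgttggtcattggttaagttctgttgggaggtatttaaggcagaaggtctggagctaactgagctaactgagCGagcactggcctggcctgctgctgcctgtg
Hira: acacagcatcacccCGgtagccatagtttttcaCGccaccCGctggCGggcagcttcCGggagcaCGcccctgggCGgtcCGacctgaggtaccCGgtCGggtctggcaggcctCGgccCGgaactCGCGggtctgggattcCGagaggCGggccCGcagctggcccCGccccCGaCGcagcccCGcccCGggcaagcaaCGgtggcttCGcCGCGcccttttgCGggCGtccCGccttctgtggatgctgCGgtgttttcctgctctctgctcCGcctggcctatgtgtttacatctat
The H1f8 promoter held 5 CG dinucleotides and the Hira promoter 31, where the median of 32851 promoters was 7. For H1f8, 38.0% of all promoters held fewer, and for Hira 89.4%. The promoters of H3f3a, H2az1, Asf1a, Daxx and Chaf1a held between 31 and 39, and that of H3f3b held 24. The letters TATAAA, read on both strands, were found for H3f3b alone among these genes and in 13.6% of all promoters. These are descriptions of sequence and were tied to no measurement.

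The first question was whether the members differed between embryos of PJ34-treated and control sires. None of the 10 rows with a single symbol passed the threshold (limma, Benjamini-Hochberg adjusted p below 0.1 over 21780 rows with 1 symbol), where 0% of all rows did. At an unadjusted p below 0.05 there were 0 of 10 member rows, against 5.89% of all rows (1282 of 21780). The differences, always given as PJ34 minus control on the log2 scale, were positive for 6 rows and negative for 4, from -0.56 for H1f8 to 0.43 for Asf1a. The median over the members was 0.08, and over all rows it was -0.02. Control and PJ34 values overlapped for all 18 rows. The share of all rows with such an overlap was not counted, so this is a description of the values only.

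**Figure D1:**
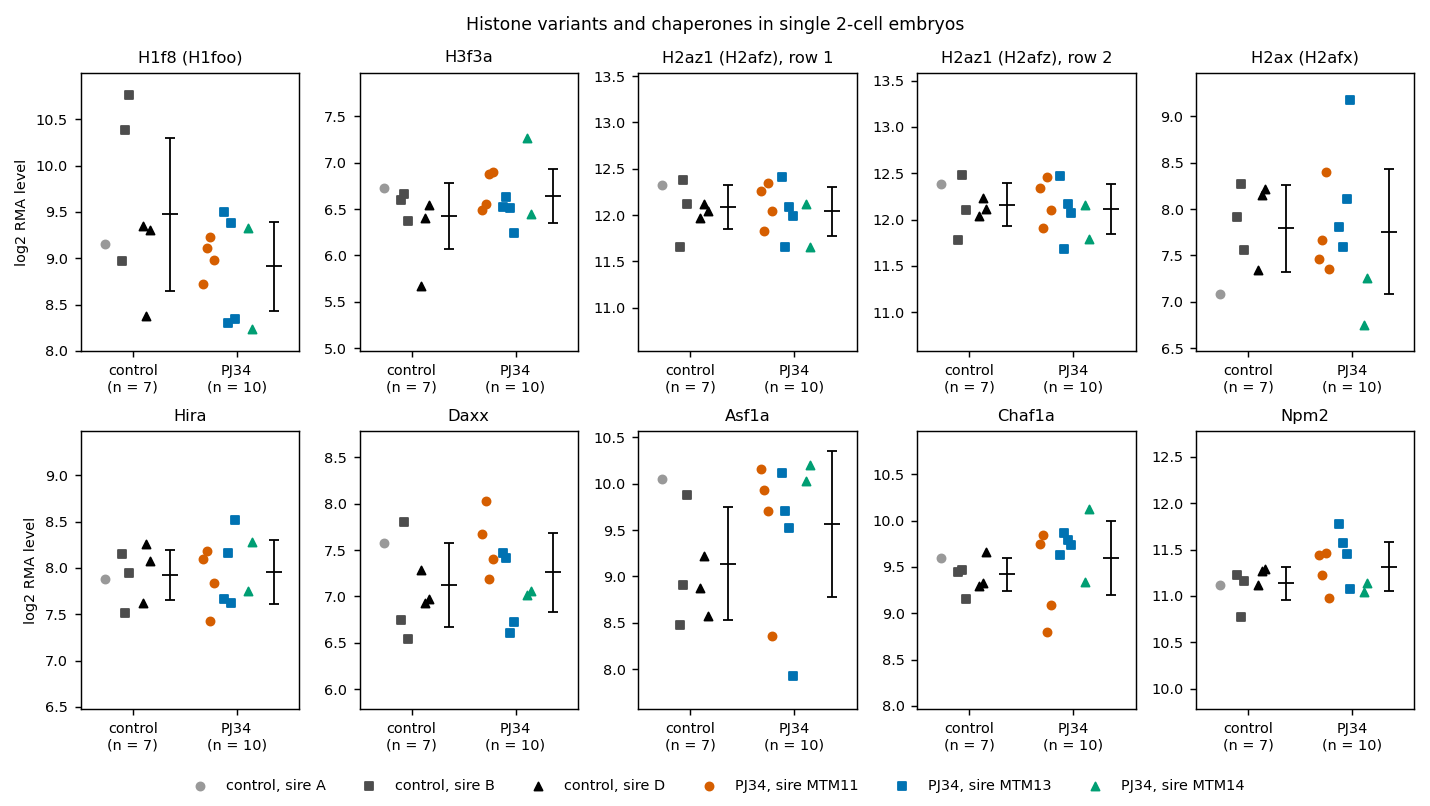
Log2 RMA levels (vertical axis, spanning 3 log2 units in every panel) of the 10 rows with a single symbol in 7 control and 10 PJ34 embryos. Each point is 1 embryo, with colour and shape by sire, and a dash with whiskers beside the points gives the group mean and SD. H1f8 lay at 9.47 in control and 8.91 in PJ34 embryos on average, and both groups overlapped in every panel.

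H1f8, the linker histone of oocytes and early embryos, had the lowest p of the members. Its log2 level was 8.38 at the lowest, 9.31 at the median and 10.76 at the highest in control embryos, and 8.23, 9.05 and 9.50 in PJ34 embryos. The means were 9.47 ± 0.83 (SD, n = 7) and 8.91 ± 0.48 (SD, n = 10), a difference of -0.56 or 1.47-fold lower (95% interval -1.19 to 0.07). The highest levels were those of control embryos B-3 and B-2, and 9 of 10 PJ34 embryos lay below the control mean. The difference did not pass the threshold (unadjusted p = 0.0799, adjusted p = 0.864). By sire, the control means were 9.16 for A, 10.04 for B and 9.01 for D, and the PJ34 means were 9.01 for MTM11, 8.88 for MTM13 and 8.78 for MTM14. Without sire B the difference was -0.13, without embryo B-3 alone it was -0.34, and without sire D it was -0.90 (unadjusted p = 0.0182, adjusted p = 0.790).

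Histone H3.3, the H3 variant deposited independently of replication, is encoded by H3f3a and H3f3b, which make the same protein. The single row of H3f3a alone ran from 5.66 to 6.73 with a median of 6.54 in control embryos, and from 6.24 to 7.27 with a median of 6.54 in PJ34 embryos. The means were 6.42 ± 0.36 (SD, n = 7) and 6.64 ± 0.29 (SD, n = 10), a difference of 0.22 (95% interval -0.10 to 0.54, adjusted p = 0.904). Embryo D-1 was lowest and embryo MTM14-1 highest, and 9 of 10 PJ34 embryos lay above the control mean. Without embryo D-1 the difference was 0.09.

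The rows that joined H3f3a with Gm12657 and H3f3b with Gm6485 are not named as one gene, because shared probes cannot tell a gene from a near-identical copy. The 4 rows of the first kind lay far above the row of H3f3a alone, with means over all 17 embryos from 10.56 to 11.08 against 6.55. The cause of this gap was not tested. Values given for H3f3a in the tests, pairs and figures are those of the single row and are not taken as the level of the gene. These 4 rows differed by 0.03 to 0.08 between the groups, and the 2 rows of the second kind by -0.05 and -0.01. The latter were the tightest of all 18 rows: the first held levels from 11.85 to 12.10 in control embryos and from 11.74 to 12.04 in PJ34 embryos, with an SD of 0.10 over all embryos that is higher than that of only 8.60% of the rows with 1 symbol. Its 95% interval for the difference was -0.17 to 0.07. In a fit over all 28815 rows none of these 6 rows passed (lowest adjusted p = 0.930), and 0% of all rows did.

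The rows of H3.3 shared some of their lowest embryos. Embryo D-1 was the lowest control embryo in 7 of 7 rows, including the row of H3f3a alone, and it was lowest of the control embryos in 16.5% of all rows with 1 symbol. Embryo MTM14-2 was the lowest PJ34 embryo in 6 of the 7 rows, the exception being the row of H3f3a alone, and it was lowest in 9.05% of all rows with 1 symbol. MTM14-1, of the same sire, was the highest in 5 of the 7, but in neither row of H3f3b, and it was highest in 7.72% of all rows. The 4 shared rows of H3f3a correlated with each other with r from 0.932 to 0.978 over the 17 embryos, and with the row of H3f3a alone with r from 0.688 to 0.722. Their correlation with the 2 rows of H3f3b was 0.480 to 0.558, and the row of H3f3a alone correlated with those 2 rows the least, with r of 0.282 and 0.362. These values are descriptions, since rows of a gene and its copies share sequence. The median correlation of D-1 with the other arrays was 0.953 and that of MTM14-2 was 0.955, within the range of 0.932 to 0.957 over all embryos.

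**Figure D2:**
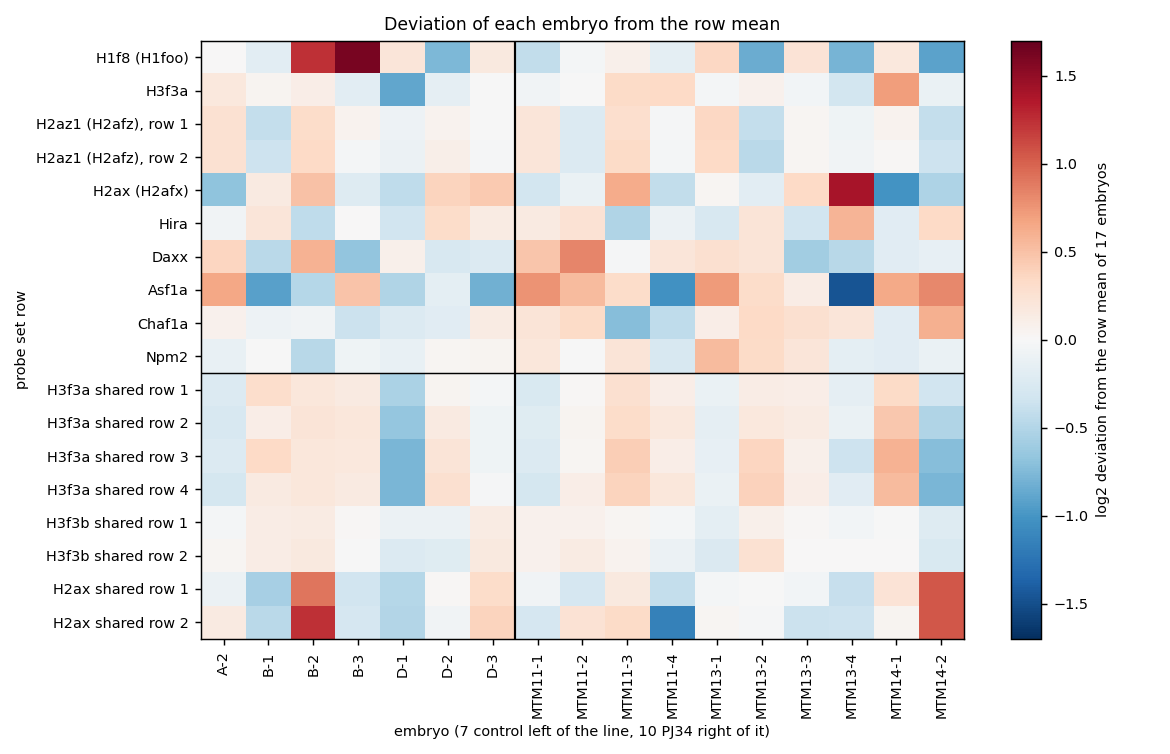
Deviation of each embryo (columns, 7 control and 10 PJ34) from the mean of each of the 18 rows over all embryos, on the log2 scale shown by the colour bar. Rows above the horizontal line carry 1 symbol, and rows below it carry several. Embryo D-1 was low across the H3.3 rows and MTM14-2 across the H3.3 rows shared with other symbols, and MTM13-4 held the highest H2ax and the lowest Asf1a.

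The H2A variants were next. H2A.Z, encoded by H2az1, marks promoters and was measured by 2 rows that followed each other closely (r = 0.989, 17 embryos) and may share a near-identical copy. The first row ran from 11.66 to 12.38 in control embryos (median 12.11) and from 11.65 to 12.41 in PJ34 embryos (median 12.06). The groups covered the same range. The differences of the 2 rows were -0.05 and -0.05, with 95% intervals of -0.31 to 0.21 and -0.30 to 0.21, so that a group difference of more than 1.24-fold in either direction lay outside the intervals (adjusted p = 0.968 and 0.970).

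H2ax encodes H2A.X, the variant phosphorylated around DNA double-strand breaks. Its level ran from 7.09 to 8.27 in control embryos (median 7.92) and from 6.75 to 9.18 in PJ34 embryos (median 7.63). The means of 7.79 ± 0.47 (SD, n = 7) and 7.76 ± 0.68 (SD, n = 10) differed by -0.04 (95% interval -0.63 to 0.56, adjusted p = 0.991). The 5.37-fold range of the PJ34 embryos was set by MTM13-4 at the top and MTM14-1 at the bottom. The sign of the difference changed in 9 of 31 alternatives, some of which could not change it, so no direction is given. The 2 rows that joined H2ax with other symbols, mostly replication-dependent H2A genes but also H3c4 and H2af-ps2, differed by 0.05 and -0.11. The first of them also carried H2aj. Both were highest in B-2 of the control embryos and MTM14-2 of the PJ34 embryos, in which H2ax alone stood at 8.27 and 7.25.

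Among the chaperones of H3.3, Hira encodes the DNA-binding scaffold of its complex. Hira ran from 7.51 to 8.25 in control embryos (median 7.95) and from 7.43 to 8.52 in PJ34 embryos (median 7.97). The difference was 0.03 (95% interval -0.29 to 0.35, adjusted p = 0.984), with 5 PJ34 embryos above the control mean and 5 below it. Its sign changed in 5 of 31 alternatives, some of which could not change it. Daxx, which with the remodeller ATRX places H3.3 in heterochromatin, ran from 6.54 to 7.80 in control embryos (median 6.97) and from 6.61 to 8.02 in PJ34 embryos (median 7.30). Its difference of 0.14 (95% interval -0.30 to 0.57, adjusted p = 0.944) depended on single sires and embryos. The mean was 7.57 for sire MTM11 against 7.05 for MTM13 and 7.04 for MTM14, and the difference was -0.07 without MTM11. It was 0.04 without control embryo B-3, 0.05 without MTM11-2 and 0.25 without control embryo B-2.

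Asf1a, the chaperone that hands H3 and H4 to HIRA and to CAF-1, had the highest SD of the members over all embryos (0.73), although H1f8 and H2ax covered a wider range. Its level ran from 8.47 to 10.05 in control embryos (median 8.90) and from 7.93 to 10.20 in PJ34 embryos (median 9.82). Most PJ34 embryos were high, 8 of 10 above the control mean, while MTM13-4 at 7.93 and MTM11-4 at 8.36 lay below every control embryo. The means were 9.14 ± 0.61 (SD, n = 7) and 9.56 ± 0.79 (SD, n = 10), a difference of 0.43 (95% interval -0.29 to 1.14, adjusted p = 0.907). Without MTM13-4 it was 0.61 (unadjusted p = 0.0464, adjusted p = 0.784), and without sire D it was 0.24. MTM13-4 also held the lowest mean of the genome activation markers, at 8.42, and their part in the Asf1a value was not tested.

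Chaf1a encodes the largest subunit of CAF-1. It ran from 9.15 to 9.66 in control embryos (median 9.44) and from 8.80 to 10.12 in PJ34 embryos (median 9.74). The PJ34 embryos lay to both sides of the narrow control range, 6 above its top and 2 below its bottom. The means of 9.42 ± 0.18 (SD, n = 7) and 9.60 ± 0.40 (SD, n = 10) differed by 0.18 (95% interval -0.15 to 0.51, adjusted p = 0.918). Without sire MTM11, which holds the 2 lowest embryos, the difference was 0.33 (unadjusted p = 0.0160, adjusted p = 0.879), and without sire MTM13 it was 0.07.

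Npm2 encodes the nucleoplasmin of the oocyte, a histone chaperone whose frog counterpart takes part in the decondensation of sperm. It ran from 10.77 to 11.29 in control embryos (median 11.16) and from 10.97 to 11.78 in PJ34 embryos (median 11.33). In 5 of 10 PJ34 embryos the level lay above every control embryo, and embryo B-2 was the lowest of all. The means of 11.14 ± 0.18 (SD, n = 7) and 11.31 ± 0.26 (SD, n = 10) differed by 0.18 (95% interval -0.06 to 0.41, adjusted p = 0.882), a difference of 1.13-fold. Without embryo B-2 the difference was 0.12, and without sire MTM13 it was 0.08.

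**Figure D3:**
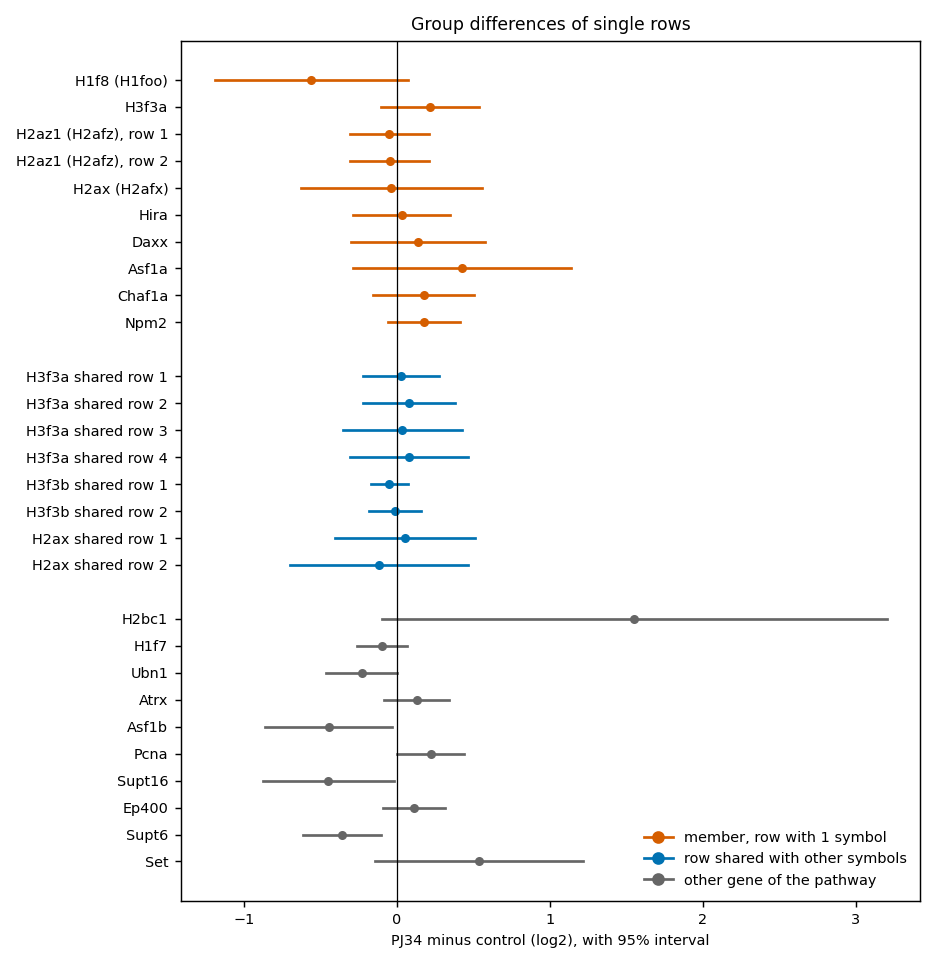
Difference of PJ34 from control embryos (horizontal axis, log2) with its 95% interval from limma for the 10 member rows with 1 symbol, the 8 rows shared with other symbols and 10 other genes of the pathway. All 18 intervals of the member rows included 0, from the narrow intervals of the H3f3b shared rows to those of H1f8 and Asf1a.

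Because each embryo is the product of 1 sperm, the spread between embryos was compared as a measure apart from the mean. In this test of absolute deviations from the group mean, 0 of 10 member rows passed the threshold, where 0.0275% of all rows did (6 of 21780, all with less spread in PJ34 embryos). At an unadjusted p below 0.05 the counts were 0 of 10 members and 8.69% of all rows. Chaf1a had the lowest p: its SD was 0.18 in control and 0.40 in PJ34 embryos, a log2 ratio of 1.18 (unadjusted p = 0.0739, adjusted p = 0.609). Npm2 followed with a log2 ratio of 0.58 (unadjusted p = 0.0910, adjusted p = 0.622), which was 1.77 without control embryo B-2 and 0.31 without MTM13-1. H1f8 went the other way, with a log2 ratio of -0.79 (unadjusted p = 0.162, adjusted p = 0.687), or -0.46 without control embryo B-3, and the ratios of the other rows lay between -0.29 for H3f3a and 0.53 for H2ax. That of H3f3a turned to 1.05 without embryo D-1, and that of H2ax was 0.05 without MTM13-4. Over all 17 embryos Asf1a and H1f8 varied more than 91.7% and 90.2% of the rows with 1 symbol, with SDs of 0.73 and 0.68, and Npm2 more than 60.5%, with an SD of 0.24.

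Single embryos were then set against the control embryos, since the study compared embryos one by one. None of the 100 pairs of a PJ34 embryo and a member row was called, against 0.581% of all embryo and row pairs, and none of 70 such pairs of a control embryo against the other 6 controls, against 0.397%. At an unadjusted p below 0.05 there were 8 of 100 member pairs in PJ34 embryos (all rows, 6.21%) and 4 of 70 in control embryos (all rows, 5.70%). The lowest p belonged to a control embryo: H3f3a in D-1 lay 0.89 below the mean of the other controls (unadjusted p = 0.00096, adjusted p = 0.162). In PJ34 embryos the lowest were Chaf1a in MTM14-2, at 0.70 above the controls (unadjusted p = 0.00556, adjusted p = 0.434), and Npm2 in MTM13-1, at 0.64 above them (unadjusted p = 0.00882, adjusted p = 0.377). Chaf1a in MTM11-3 lay 0.62 below the controls (adjusted p = 0.589), and H2ax in MTM13-4 lay 1.39 above them (adjusted p = 0.453). The same gene thus went to opposite sides in different embryos of treated sires, without passing in any.

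By sire, no member passed in any PJ34 family against all control embryos: 0 of 10 rows in MTM11 (all rows, 0.00459%), 0 of 10 in MTM13 (0%) and 0 of 10 in MTM14 (0.0551%). The lowest p was that of Npm2 in MTM13, which differed by 0.33 (unadjusted p = 0.0255, adjusted p = 0.954), while in MTM11 and MTM14 it differed by 0.14 and -0.05. H2ax differed by -0.79 in MTM14 (adjusted p = 0.916), by 0.38 in MTM13 and by -0.07 in MTM11. Daxx differed by 0.45 in MTM11 (adjusted p = 0.959). H1f8 was lower in all 3 families, by -0.46, -0.59 and -0.69 in MTM11, MTM13 and MTM14, with adjusted p of 0.982, 0.954 and 0.957. All 3 were set against the same control embryos, so they are not independent. Control sire B had a mean of 10.04, against 9.16 for A and 9.01 for D. Without sire B the group difference was -0.13. In the F test of a difference between the 3 PJ34 families none of the 10 member rows passed (all rows, 0.0138%). The lowest p was that of H2ax (unadjusted p = 0.0496, adjusted p = 0.9997).

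How the members varied among themselves was examined over 36 pairs of 9 genes, with 1 row per gene and all 17 embryos. H1f8 and Hira varied in opposite directions, with Pearson's r of -0.62 (permutation test, two-sided, p = 0.00687, adjusted over 36 pairs 0.176) and Spearman's rho of -0.78 (permutation p = 0.00057, adjusted 0.0205). By rank this was the only pair below the threshold, and by Pearson's r none was. How often pairs of other rows correlate this strongly was not counted, so the pair is not set apart from the rest of the array. The correlation was -0.59 within control embryos and -0.83 within PJ34 embryos, and -0.79 without the 2 embryos farthest from the median of H1f8, which were B-2 and B-3. With values centred on the mean of each sire it was -0.72 (exact permutation within sires, p = 0.0129, adjusted 0.422). Single sires held at most 4 embryos, too few for a correlation of their own. The 4 embryos with the lowest H1f8 levels, MTM14-2, MTM13-2, MTM13-4 and D-2, had Hira levels from 8.16 to 8.52, where the median of all embryos was 7.95.

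**Figure D4:**
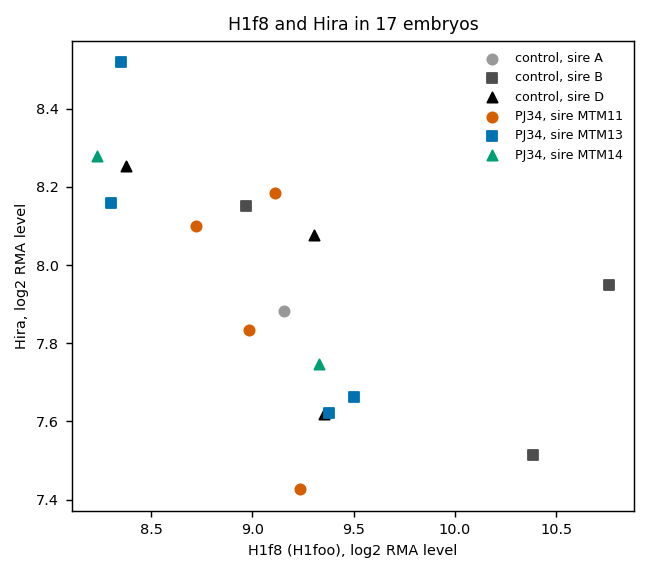
Log2 RMA level of Hira (vertical axis) against that of H1f8 (horizontal axis) in 17 embryos, each point 1 embryo with colour and shape by sire. Pearson's r was -0.62 and Spearman's rho -0.78, with control embryos B-2 and B-3 at the highest H1f8 levels.

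The next pairs did not pass by either measure. H2az1 and Hira had r = -0.59 (adjusted permutation p = 0.176), H2ax and Asf1a had r = -0.58 (adjusted permutation p = 0.176), and Hira and Chaf1a had r = 0.53 (adjusted permutation p = 0.247). The second of these fell to -0.32 and the third to 0.37 without the 2 embryos farthest from the median of the first gene. Hira and Npm2 had r = 0.85 within the 7 control embryos (exact permutation, adjusted p = 0.0929), -0.37 within PJ34 embryos and -0.03 over all 17.

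Other genes of the same machinery were set beside the members in 5 lists with 48 genes, of which 41 had 44 rows with a single symbol. None of these rows passed the threshold (lowest adjusted p = 0.814), and 4 of 44 rows had an unadjusted p below 0.05, which is 9.09% where all rows gave 5.89%. The median difference over the 44 rows was -0.01, and over all rows it was -0.02. For each list the 2 genes with the lowest p are named. Genes chosen in this way tend to have most PJ34 embryos on 1 side of the control mean. The counts of such embryos given below are descriptions, and they were not made over all rows.

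Supt6, a histone chaperone of transcription elongation, had 9.97 to 10.75 in control embryos and 9.74 to 10.38 in PJ34 embryos, a difference of -0.36 with 10 of 10 PJ34 embryos below the control mean (adjusted p = 0.814). Supt16, a subunit of the chaperone FACT that handles H2A and H2B, differed by -0.45 with 9 of 10 below (adjusted p = 0.843). Asf1b, the paralog of Asf1a linked to proliferation, also differed by -0.45 with 9 of 10 below (adjusted p = 0.843), where Asf1a itself differed by 0.43. Ubn1, the partner of HIRA, differed by -0.23 with 10 of 10 below (adjusted p = 0.843), and Atrx, the partner of DAXX, by 0.13. Pcna, the replication clamp that recruits CAF-1, differed by 0.22 with 9 of 10 above (adjusted p = 0.843).

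The remaining named genes were Ep400, a catalytic subunit of H2A.Z exchange, at 0.11, the chaperone Set at 0.54 in 1 of its 2 rows and -0.15 in the other, and the spermatid linker histone H1f7 at -0.10. H2bc1, the testis H2B variant, had the largest difference of the lists. It ran from 5.59 to 10.09 in control embryos and from 5.98 to 10.30 in PJ34 embryos, a difference of 1.55 (95% interval -0.10 to 3.20, adjusted p = 0.855) with 8 of 10 PJ34 embryos above the control mean. Both groups covered nearly the whole of this range. The testis histones H1f6 and Hils1 and the macroH2A genes Macroh2a1 and Macroh2a2, which were named after their values had been seen, differed by -0.07, 0.00, 0.03 and -0.10.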

How the data were processed

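RNA of single 2-cell embryos was amplified and hybridized to Affymetrix arrays, and the authors deposited log2 intensities made by RMA in Partek, with versions and genome build not given in the sources used here. Quantile normalization in RMA removes differences in total RNA. The values were used as deposited, and rows were named through the platform annotation, updated by gene ID from a RefSeq gene table (GRCm38.p6). Rows with 1 symbol (21780) were tested with limma 3.58.1 in R 4.3.3, two-sided, with Benjamini-Hochberg adjustment and the study's threshold of 0.1. The group comparison had no covariates. Spread was tested by limma on absolute deviations from the group mean. Single embryos used the spread of the controls alone, and the families were fitted as 4 groups. Correlations used 100000 resamples. Plots were made in matplotlib 3.10.9 (Python 3.11.15). The fits were tested on simulated data. Arrays have no read depth, and precision was limited by the 3 sires per group and by how many embryos were profiled. The median standard error of a difference over rows was 0.09, in a fit that took embryos as independent. All members are named, and of the other lists the 2 genes with the lowest p. Members and lists were chosen with earlier results of these data known. Alternatives were the sire as a random block, sire means, centred arrays, other row sets and priors, a plain analysis of variance, and leaving out each embryo and each sire. No detection calls were used.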

Additional observations from a re-analysis of the deposited data

Results flagged for a closer look

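A sample far from the others of its group was looked for in 72 sets, the 18 rows in control embryos, in PJ34 embryos and in the families of MTM11 and MTM13, by the gap to the nearest embryo over the range of the set (Dixon's criterion at 95%). It was found in 4 sets, and chance gives about 1 in 20. H3f3a in control embryo D-1 stood at 5.66, where the next control embryo stood at 6.37. Npm2 in control embryo B-2 stood at 10.77, below the next at 11.11. The first row that joins H2ax with other symbols stood at 10.88 in PJ34 embryo MTM14-2, above the next at 10.06. The same row was low in MTM13-4 among the embryos of its sire, at 9.44 against 9.78. The array of D-1 correlated with the others like those of its group (median r = 0.953).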

How the results depend on the processing

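No member row was called in the group comparison under any of 31 alternatives, in the spread comparison under any of 21, or in single embryos and families under the alternatives run. The signs of the group difference of H1f8, H3f3a, Asf1a, Chaf1a, Npm2 and the first H2az1 row held throughout. Alternatives that changed only the rows tested, the prior or the test left the difference of a row as it was and could not change its sign. Leaving out sire A was the same fit as leaving out embryo A-2. Leaving out 1 embryo moved the difference of H2az1 (second row) between -0.110 and 0.0060, of H2ax between -0.193 and 0.0761, and of Hira between -0.0364 and 0.0900. Without a whole sire H2ax was 0.0568 (sire B), 0.0486 (D) or 0.153 (MTM14), Hira -0.0060 (B), and Daxx -0.0717 (MTM11). The log2 SD ratio, with 1 embryo left out, ran from -0.80 to 1.05 for H3f3a, from -0.35 to 0.21 for Daxx and from -0.10 to 0.63 for Asf1a. The cause was not tested.

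Among the pairs, Pearson's r called 1 pair within control embryos (Hira and Npm2), 1 with arrays centred and 1 without the 2 embryos farthest on the first gene (both H1f8 and Hira). Centred on sire means, an alternative chosen after seeing the data, it called 0. Spearman's rho called 1 pair over all embryos and 0 within control embryos or within PJ34 embryos, where fewer embryos entered.

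Over all rows the group comparison called 0, and 2 with the sire as a random block, 2 among brighter rows, 1 with rows of a gene averaged and up to 2 without 1 embryo or sire. The spread comparison called 6, and 0 with deviations from the group median, 2 among brighter rows, 37 with arrays centred, 7 to 42 without 1 embryo, and 254 with an exact permutation test of the SD ratio. No paired analysis was possible because embryo numbers restart within each sire and pair no control with a PJ34 embryo. With 7 and 10 embryos the 95% intervals reach 2.28-fold lower for H1f8 and 2.20-fold higher for Asf1a.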
